A study of Mus musculus with 10 samples.

Results

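The genes described here are 10 components of the circadian clock, chosen by name: the activators Arntl (also called Bmal1), Clock and Npas2, the repressors Per1, Per2, Per3, Cry1 and Cry2, and the output factors Dbp and Nfil3. A gene was represented by its probe set on the array, and only a probe set annotated to exactly 1 gene was used. By this rule 9 of the 10 members were measured, among 17919 genes in all. The probe set for Per2 also carries the name of a second gene, so Per2 has no value of its own. Each measured member had 1 such probe set. The groups were 5 lungs labelled Shhcre control and 5 lungs labelled Shhcre:Hdac3fl/fl, Hdac3 KO, all from mouse embryos at E18.5, shortly before birth, on a mixed C57BL/6 and 129X1,129S6 background. The embryos came from Hdac3 fl/fl mothers and Hdac3 fl/+ ShhCre fathers, so all of them inherited a floxed Hdac3 allele from the mother, and the labels do not give the second Hdac3 allele of the controls. Both groups therefore carry Shh-Cre, a recombinase active in the epithelium of the lung, and the knockout lacks Hdac3 only in cells where Shh-Cre has acted. Whole lungs were profiled, 1 array per lung, so RNA of unrecombined mesenchyme, vessels and blood is part of each value. In such tissue, fewer cells of a type and less RNA per cell cannot be told apart. The labels give neither the hour of dissection nor the litter of an embryo.

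The circadian clock is a feedback loop of transcription that runs in most cells. ARNTL pairs with CLOCK or its relative NPAS2 and switches on genes through a DNA motif called the E-box, among them the Per and Cry genes, whose proteins return to the nucleus and block the activators. A second loop uses the nuclear receptors REV-ERB alpha and beta, encoded by Nr1d1 and Nr1d2, which repress Arntl and related genes by recruiting the NCoR corepressor with Hdac3, a histone deacetylase, while the ROR receptors activate through the same motif. Dbp, Tef and Hlf encode activators that bind another motif, the D-box, and Nfil3 encodes a repressor that binds the D-box too. The comparison asks how these genes stand in lungs without epithelial Hdac3, the enzyme through which REV-ERB represses.

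Motifs of these loops were looked for in the promoters of the clock genes, and not every gene described below holds one. Windows of 300 bases, from 250 before to 50 after each annotated transcript start, were taken from RefSeq (build GRCm38.p6), and 19 of the 22 clock factors considered here had at least 1 window, 26 in all. Per2 and Bhlhe40 were among those without one. Both strands were searched for the E-box CACGTG, for the D-box TTANGTAA and for TAGGTCA, the core of the element read by REV-ERB and ROR. None of these 3 motifs is contained in another. The whole Per3 window is shown because Per3 had the largest change of the members and holds 2 matches of the D-box, which are in capitals. It lies on the minus strand at chr4:151044616-151044915.
Per3: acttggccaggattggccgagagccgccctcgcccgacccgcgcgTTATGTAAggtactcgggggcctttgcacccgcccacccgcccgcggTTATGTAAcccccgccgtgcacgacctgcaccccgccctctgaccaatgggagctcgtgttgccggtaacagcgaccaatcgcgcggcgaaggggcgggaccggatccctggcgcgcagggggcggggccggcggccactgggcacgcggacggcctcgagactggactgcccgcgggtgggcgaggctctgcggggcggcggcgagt

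The 2 members whose windows hold TAGGTCA were Arntl, on the plus strand at chr7:113207521-113207560, and Nfil3, on the minus strand at chr13:52981025-52981071, where the match is on the opposite strand and reads TGACCTA. These stretches are shown because this is the motif that REV-ERB binds.
Arntl: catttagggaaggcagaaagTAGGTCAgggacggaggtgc
Nfil3: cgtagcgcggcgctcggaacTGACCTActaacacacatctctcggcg

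The E-box was found in the windows of the members Per1 (plus strand, chr11:69098763-69098808) and Cry1 (minus strand, chr10:85185089-85185134). It was also found in Bhlhe41 (minus strand, chr6:145865548-145865593) and in both windows of Tef, the first on the plus strand at chr15:81802526-81802571. Bhlhe41 and Tef are shown beside the members because they fell in the knockout, as given below. The other genes with an E-box match, Per1, Cry1, Ciart and Cipc, were not called by limma. Their log2 changes were -0.03, -0.03, -0.06 and 0.04. Per3 and Nr1d2 also fell, and no E-box was found for them. A relation between the motif and the change was not tested.
Per1: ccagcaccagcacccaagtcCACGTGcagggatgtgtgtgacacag
Cry1: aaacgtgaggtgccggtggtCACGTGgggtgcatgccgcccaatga
Bhlhe41: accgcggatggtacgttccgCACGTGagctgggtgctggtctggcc
Tef: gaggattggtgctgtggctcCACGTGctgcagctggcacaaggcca

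The remaining E-box matches lay in Ciart and Cipc, and the remaining D-box matches in Timeless and Rorb. No match of any of these motifs was found for Nr1d2, which fell in the knockout, or for Nr1d1, Cry2 and Dbp. Per3 held the D-box only. Of the 26 clock windows, 7 held the E-box, 3 the D-box and 2 TAGGTCA. Over all 32851 windows of the table the shares were 7.15%, 2.32% and 2.61%. A match is a string of letters in this window and not a measured binding site.

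**Figure D1:**
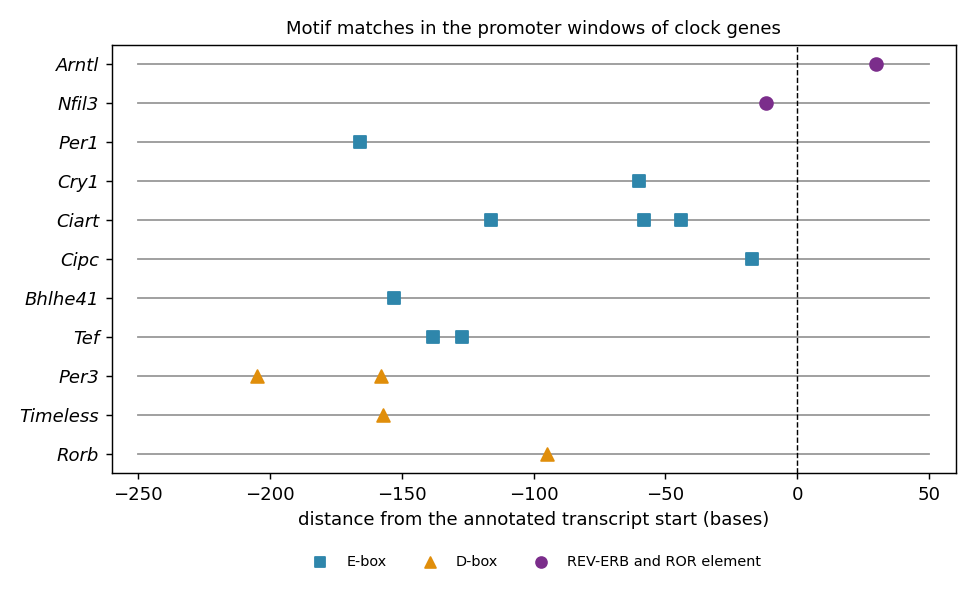
Positions of the 3 motifs in the promoter windows of the clock genes that hold one, as the distance in bases of the first base of each match from the annotated transcript start (dashed line), with squares for the E-box, triangles for the D-box and circles for the REV-ERB and ROR element. Per3 holds 2 D-boxes, at -205 and -158, and the REV-ERB and ROR element of Arntl lies at 30, just after the start.

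Of the 9 measured members, 1 fell in the knockout, Per3, and 0 rose, by limma at an adjusted p under 0.05. Over all genes 3.12% were called, 1.58% lower and 1.54% higher, so 1 of 9 is a small count from which no statement about the family follows. At an unadjusted p under 0.05 there were 3 members, namely Per3, Arntl and Dbp, all with lower means in the knockout, against 13.5% of all genes. The median log2 change of the members was -0.06, against 0.00 over all genes. The knockout and control lungs did not overlap for 2 of the 9, Arntl and Per3, both lower in the knockout, a pattern found in 2.66% of all genes.

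**Figure D2:**
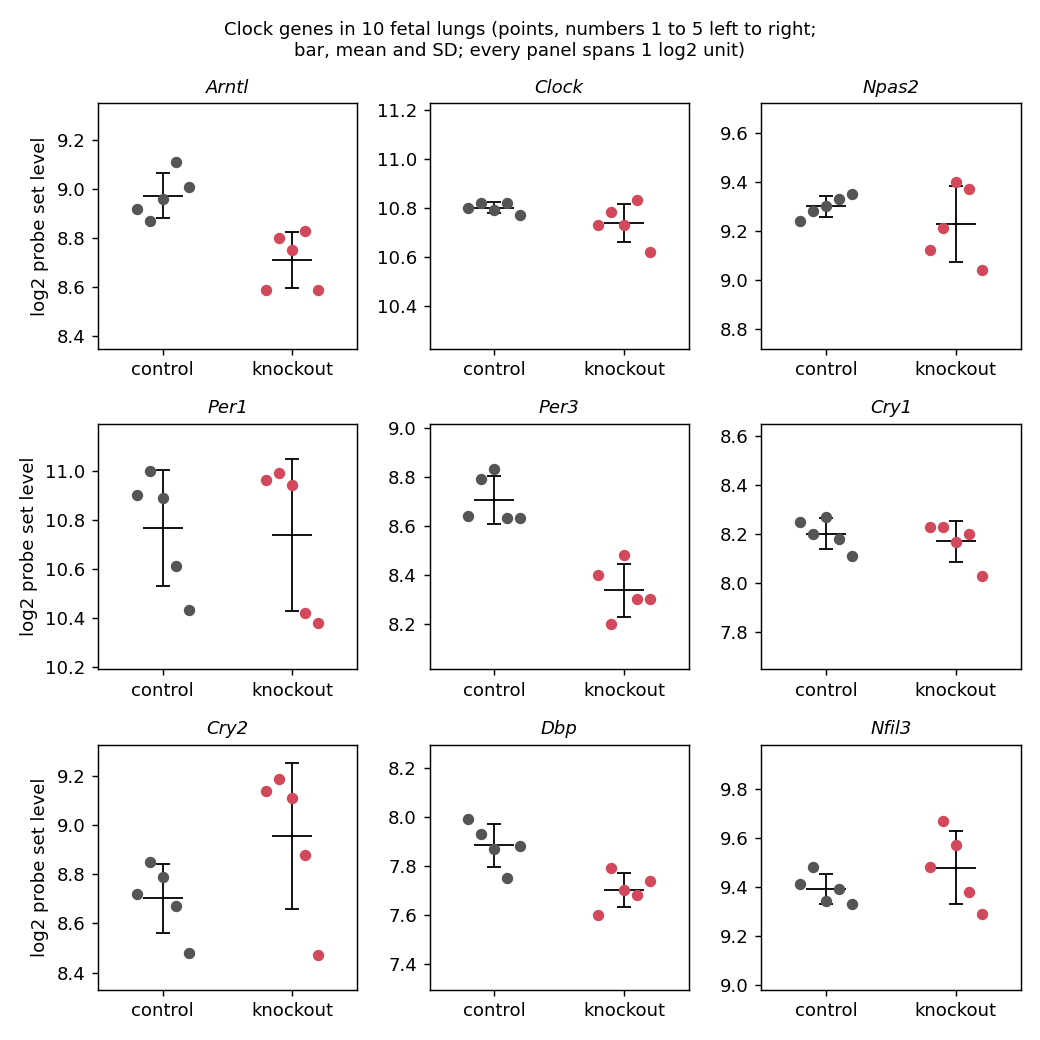
Log2 probe set level of each measured clock gene in 5 control and 5 Hdac3 knockout lungs, with points for lungs numbered 1 to 5 from left to right in each group and a bar for the mean and SD. The groups do not overlap for Arntl and Per3, and Per1 splits into a high and a low set within both groups.

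Per3 encodes a period protein that takes part in the repressor complex with the other PER proteins. Its log2 levels in control lungs 1 to 5 were 8.64, 8.79, 8.83, 8.63 and 8.63. In knockout lungs 1 to 5 they were 8.40, 8.20, 8.48, 8.30 and 8.30. Every knockout lung lay below every control lung, with the lowest value in knockout 2 and the highest in control 3. The control mean was 8.71 ± 0.10 and the knockout mean 8.34 ± 0.11 (SD, n = 5 each), a log2 change of -0.37 ± 0.06 (SE), or 77.5% of the control level with a 95% confidence interval from 70.4% to 85.4%. The limma adjusted p was 0.00731, and the exact permutation p was 0.00794, two-sided, the smallest that 5 against 5 lungs can give. The change was -0.39 among lungs numbered 1 to 3 (limma adjusted p = 0.0594) and -0.33 among those numbered 4 and 5 (adjusted p = 0.344).

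Of the activators, Arntl encodes the partner without which the activating complex cannot form. Its log2 levels were 8.92, 8.87, 8.96, 9.11 and 9.01 in control lungs 1 to 5. They were 8.59, 8.80, 8.75, 8.83 and 8.59 in knockout lungs 1 to 5. All knockout lungs lay below all controls, and the narrowest gap was between knockout 4 and control 2. The log2 change was -0.26 ± 0.07 (SE), or 83.4% of the control level (95% confidence interval 75.6% to 92.0%), with an exact permutation p of 0.00794. After adjustment over all genes it missed the threshold narrowly (limma adjusted p = 0.0519), and it passed with the replicate number as a block (adjusted p = 0.0405) and without knockout 4 (0.0447). With the block, 2 of the 9 members were called lower, against 2.44% of all genes.

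Clock and Npas2, the alternative partners of ARNTL, were not called. Clock stood between 10.77 and 10.82 in the controls and between 10.62 and 10.83 in the knockouts, with a log2 change of -0.06 and a 95% confidence interval from 89.0% to 103% of the control level. Npas2 stood between 9.24 and 9.35 in the controls and between 9.04 and 9.40 in the knockouts, with a log2 change of -0.07 and an interval from 85.6% to 106%. In both genes the groups overlapped and the knockouts were more spread, with an SD of 0.08 against 0.02 for Clock and 0.16 against 0.04 for Npas2. The difference in spread was not tested.

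Among the other repressors, Per1 differed more within the groups than between them. Its log2 levels in control lungs 1 to 5 were 10.90, 11.00, 10.89, 10.61 and 10.43, and in knockout lungs 1 to 5 they were 10.96, 10.99, 10.94, 10.42 and 10.38. Numbers 1 to 3 were high and numbers 4 and 5 low in both groups. The log2 change between genotypes was -0.03 ± 0.15 (SE, limma adjusted p = 0.971), with a 95% confidence interval from 78.7% to 123% of control. Cry1, a cryptochrome that blocks ARNTL and CLOCK, had a log2 change of -0.03 (limma adjusted p = 0.885, 90.5% to 106% of control), with overlapping groups from 8.11 to 8.27 and from 8.03 to 8.23.

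Cry2, the second cryptochrome, had log2 levels of 8.72, 8.85, 8.79, 8.67 and 8.48 in control lungs 1 to 5. In knockout lungs 1 to 5 the levels were 9.14, 9.19, 9.11, 8.88 and 8.47. Knockouts 1 to 4 lay above every control, while knockout 5 lay level with the lowest control. The log2 change was 0.25 ± 0.13 (SE, 98.7% to 144% of control), and it was not called (limma adjusted p = 0.416, and 0.0699 with the replicate block). Cry2 also varied with the replicate number, with a median 0.40 higher in numbers 1 to 3 than in 4 and 5. Number 5 was the lowest in both groups. Without knockout 5 the change was 0.38 and was called (limma adjusted p = 0.0312). Without control 5 it was 0.20 (adjusted p = 0.604). The change was also called among numbers 1 to 3 alone (0.36, adjusted p = 0.0194). It was not called over all lungs with numbers 1 to 3 against 4 and 5 as a block (adjusted p = 0.115). Among numbers 4 and 5 alone it was 0.10 (adjusted p = 0.893). Leaving out any other single lung did not bring a call of Cry2. A further probe set carries the name of Cry2 with that of another gene and was not used.

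The output factors did not pass the test. Dbp, an activator at the D-box whose RNA is among the most strongly rhythmic in adult organs, stood at 7.99, 7.93, 7.87, 7.75 and 7.88 in control lungs 1 to 5. It stood at 7.60, 7.79, 7.70, 7.68 and 7.74 in knockout lungs 1 to 5. The groups overlapped only through control 4 and knockout 2, and each knockout lung was below the control of the same number. The log2 change was -0.18 ± 0.06 (SE), or 88.1% of control, with an exact permutation p of 0.0159 and a limma adjusted p of 0.117. Nfil3, which opposes Dbp at the D-box, had a log2 change of 0.08 (adjusted p = 0.694, 95.4% to 118% of control), from 9.33 to 9.48 in the controls and from 9.29 to 9.67 in the knockouts.

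One lung was often the lowest among the members. Knockout 5 had the lowest value of all 10 lungs for 7 of the 9 members, the exceptions being Per3 and Dbp. The share of all genes that were lowest in this lung was not counted. Knockout 5 also lay at the end of the second principal component of all genes, at -17.03, so this need not be particular to the clock genes. Without knockout 5 the log2 changes of Clock and Npas2 were -0.03 and -0.02, that of Per1 was 0.06, that of Arntl was -0.23 (limma adjusted p = 0.091), and that of Per3 was -0.36 and still called (adjusted p = 0.0158).

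Other clock transcription factors gave more calls than the members. Of 12 listed, 11 were measured. Of the 11, 3 fell and none rose (limma), while 5 had an unadjusted p under 0.05, against 13.5% of all genes. The 3 were Nr1d2, Bhlhe41 and Tef, and the median log2 change of the list was -0.06. With Per3, this makes 4 of 20 measured clock factors lower and 0 higher at the threshold, against 1.58% and 1.54% of all genes, and 15 of the 20 had a change below 0, against 48% of all genes. With the replicate block 6 were lower, against 2.44% of all genes, and 0 higher, against 2.28%. The groups did not overlap for 6 of the 20, all lower in the knockout, against 2.66% of all genes. The list and the members were chosen by name with earlier results of these data known, so the counts are a description and no test was made over the list.

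Nr1d2 encodes REV-ERB beta. Its log2 levels were 7.83, 7.93, 7.83, 7.81 and 7.73 in control lungs 1 to 5. In knockout lungs 1 to 5 they were 7.53, 7.61, 7.62, 7.61 and 7.53. The knockout values were close together and all lay below the lowest control. Its log2 change was -0.25 ± 0.05 (SE), or 84.2% of control (78.3% to 90.6%, limma adjusted p = 0.0149). It was -0.28 among numbers 1 to 3 (adjusted p = 0.055) and -0.20 among numbers 4 and 5 (adjusted p = 0.622).

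Nr1d1, which encodes REV-ERB alpha, stood at 8.02, 8.14, 7.89, 7.85 and 7.84 in control lungs 1 to 5, and at 7.78, 7.83, 7.80, 7.72 and 7.68 in knockout lungs 1 to 5. The groups were separated by a hair, between knockout 2 and control 5. The log2 change was -0.18 ± 0.06 (SE), with an exact permutation p of 0.00794, and it was not called by limma (adjusted p = 0.185). Rora, which encodes an activator at the REV-ERB element and was named after its values were seen, had a log2 change of -0.22 ± 0.08 (SE), not called (adjusted p = 0.215) but called with the replicate block (0.0371).

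Bhlhe41, also known as Dec2, a repressor that competes at the E-box, had the largest change of the 20. Its log2 levels were 6.79, 7.09, 6.58, 6.59 and 6.60 in control lungs 1 to 5. They were 6.21, 6.21, 6.01, 6.33 and 5.97 in knockout lungs 1 to 5. Control 2 was the highest lung and the groups did not overlap. Its log2 change was -0.58 ± 0.10 (SE), or 66.8% of control (57.1% to 78.1%, limma adjusted p = 0.00837). The levels lie near 6.30, the 20th percentile of the values of the 17919 genes, and with values floored there the change was -0.42 and was not called (adjusted p = 0.0624). It was -0.68 among numbers 1 to 3 (adjusted p = 0.0294) and -0.44 among numbers 4 and 5 (adjusted p = 0.465).

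Tef, a relative of Dbp, stood at 8.86, 8.86, 8.87, 8.61 and 8.77 in control lungs 1 to 5, and at 8.43, 8.46, 8.46, 8.46 and 8.61 in knockout lungs 1 to 5. Knockout 5 was level with control 4 to the second decimal, and the other 4 knockouts were well below. Its log2 change was -0.31 ± 0.06 (SE), or 80.7% of control (73.7% to 88.4%, limma adjusted p = 0.015). It was -0.41 among numbers 1 to 3 (adjusted p = 0.00512) and -0.15 among numbers 4 and 5 (adjusted p = 0.74). Hlf, the remaining factor of this family, named after its value was seen, had a log2 change of -0.02 (adjusted p = 0.934), so the 3 relatives Dbp, Tef and Hlf stood at -0.18, -0.31 and -0.02.

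**Figure D3:**
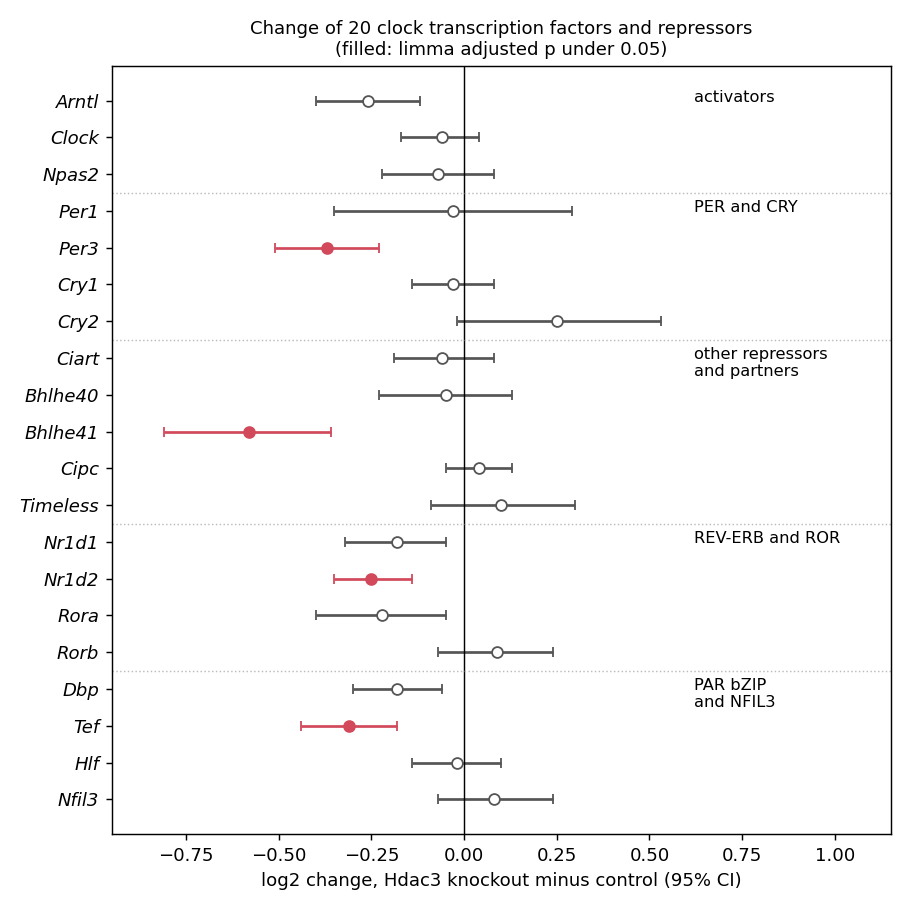
Log2 change, Hdac3 knockout minus control, of the 20 measured clock factors with 95% confidence intervals, grouped by role and filled where the limma adjusted p was under 0.05. The 4 filled points, Per3, Bhlhe41, Nr1d2 and Tef, lie between -0.58 and -0.25, and no factor was called higher.

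Genes that modify clock proteins did not pass the test. Of 9 listed kinases, ubiquitin ligase subunits and deubiquitinases, 7 were measured, 0 were called by limma with or without the replicate block, and 0 had an unadjusted p under 0.05. The smallest p were those of Fbxw11, a subunit that marks PER for degradation, with a log2 change of 0.09 (adjusted p = 0.456), and Gsk3b, a kinase, with 0.05 (adjusted p = 0.744). Of 11 listed output genes, 10 were measured and 0 were called by limma, while 2 had an unadjusted p under 0.05, against 13.5% of all genes: Klf10, with a log2 change of 0.26 (adjusted p = 0.158, and 0.0488 without knockout 5), and Lonrf3, with -0.24 (adjusted p = 0.365). Klf10 was also called with numbers 1 to 3 against 4 and 5 as a block (limma adjusted p = 0.0459). Its change was 0.35 among numbers 1 to 3 (adjusted p = 0.0463) and 0.13 among numbers 4 and 5 (adjusted p = 0.793). With the replicate block, 1 output gene rose, against 2.28% of all genes, and 1 fell, against 2.44%. The 1 that fell was Lonrf3 (adjusted p = 0.0308). The 1 that rose was Cdkn1a, the cell cycle inhibitor p21 (0.43, limma adjusted p = 0.00265), which was not called without a block (0.495) or with numbers 1 to 3 against 4 and 5 as the block (0.152). Each knockout lung was above the control of the same number, by 0.29 to 0.51. Number 5 was the lowest in both groups, at 9.46 in the control and 9.96 in the knockout. Without control 5 the change of Cdkn1a was 0.22 (limma adjusted p = 0.716), and without knockout 5 it was 0.61 (adjusted p = 0.164). It was 0.38 among numbers 1 to 3 (adjusted p = 0.0194) and 0.49 among numbers 4 and 5 (adjusted p = 0.743). Cdkn1a was named after its values were seen.

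In the corepressor through which REV-ERB acts, Hdac3 itself was 80.4% of control and called (log2 change -0.31 ± 0.07, SE, limma adjusted p = 0.0203), but not without control 2 (0.0526) or control 5 (0.0545). Its lungs did not overlap, from 10.67 to 10.90 in the controls and from 10.34 to 10.61 in the knockouts. Whether its probes lie within the floxed exons was not analysed here. Of the 4 measured members of the complex, 2 rose, against 1.54% of all genes. Tbl1xr1, a subunit that serves the exchange of corepressors, rose by 0.26 (adjusted p = 0.00973), and its relative Tbl1x by 0.17 (adjusted p = 0.0402, and 0.0655 with the block). Leaving out any single lung ended the call of Tbl1x (adjusted p from 0.0627 to 0.101).

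The measured members also varied among lungs of the same genotype, and part of that variation followed the replicate number. On the second principal component of all genes (22.1% of the variance), numbers 1 to 3 lay above numbers 4 and 5 within each group. The labels name no batch. Among 37 measured genes of the members, other factors, modifiers and output genes, 5 were higher in all 6 lungs numbered 1 to 3 than in all 4 lungs numbered 4 and 5, against 4.32% of all genes, and 1 was lower, against 3.73%. The 5 were Per1, Usp2, Fkbp5, Sgk1 and Klf9, and the 1 was Bhlhe40. These genes were named after their values were seen. Sgk1 encodes a protein kinase, Klf9 a transcription factor, Fkbp5 a chaperone partner and Usp2 a deubiquitinase.

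Per1 stood from 10.89 to 11.00 in the lungs numbered 1 to 3 and from 10.38 to 10.61 in those numbered 4 and 5, a difference in medians of 0.53. Fkbp5 stood from 9.46 to 9.72 and from 8.93 to 9.08, Sgk1 from 9.21 to 9.73 and from 8.91 to 8.98, and Klf9 from 10.70 to 10.86 and from 10.22 to 10.47. Bhlhe40, also known as Dec1, ran the other way, from 8.92 to 9.10 and from 9.14 to 9.34. Per3 and Arntl were not split in this way, with medians 0.10 higher and 0.08 lower in numbers 1 to 3.

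**Figure D4:**
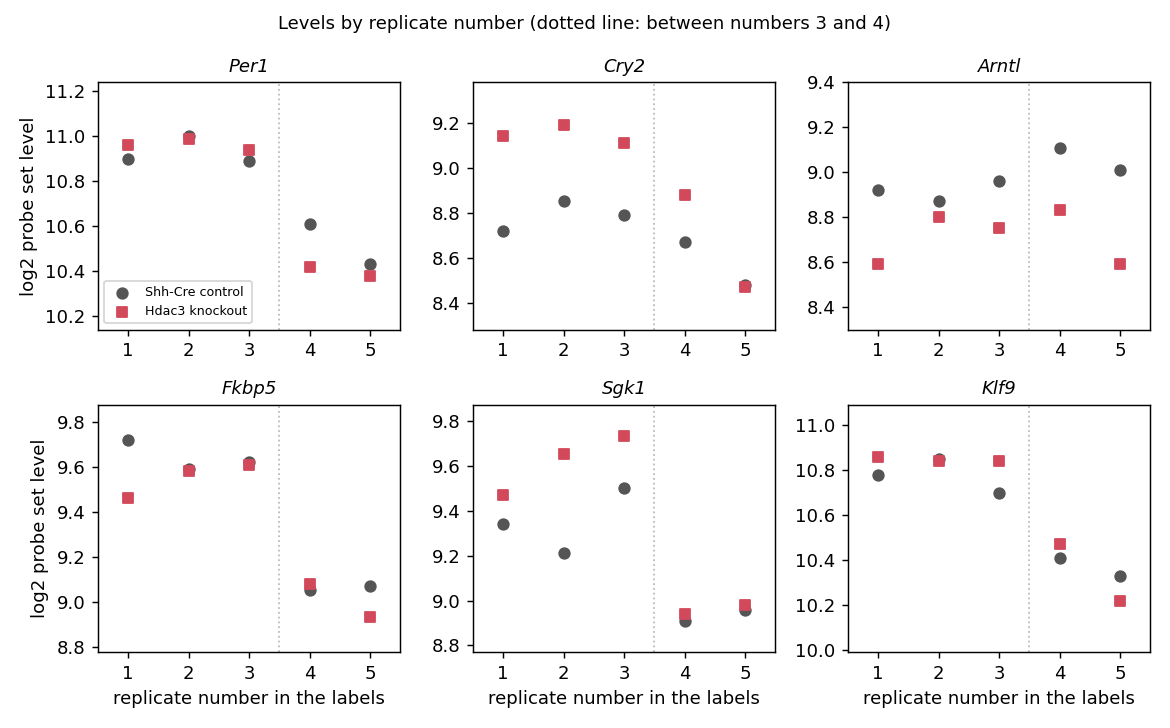
Log2 level of 6 genes by the replicate number in the labels, with circles for controls and squares for Hdac3 knockouts. Per1, Fkbp5, Sgk1 and Klf9 are higher at numbers 1 to 3 than at 4 and 5 in both groups, while Arntl is lower in the knockout at every number.

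As deviations from the group mean, 36 pairs of members were correlated over the 10 lungs. Per1 falls into separate sets, so no pooled value is given for its 8 pairs. Among the 6 lungs numbered 1 to 3, r of these 8 pairs ran from -0.47 (Cry1) to 0.83 (Cry2, exact permutation p = 0.139, two-sided, adjusted p over the 8 pairs 0.444, rho = 0.66). The smallest p was that of Per1 and Clock, with r = 0.69 (exact p = 0.0278, adjusted p = 0.222) and rho = 0.49 (exact p = 0.139). Of the 28 pairs without Per1, 0 passed Benjamini-Hochberg adjustment over the 36 pairs, and 3 had an unadjusted exact permutation p under 0.05. The permutation takes the lungs of a group as interchangeable. Lungs of the same number deviated together, and Cry2 also varied with the number, so these p-values do not allow for that shared variation. Cry1 and Cry2 had r = 0.86 (exact p = 0.00861, adjusted p = 0.107) and rho = 0.67 (exact p = 0.0391), and without the 2 most extreme lungs, knockout 5 and control 5, r was 0.34, so this relation rests on those lungs. Among numbers 1 to 3, r of Cry1 and Cry2 was -0.11 (exact p = 0.917). Cry2 and Nfil3 had r = 0.84 (exact p = 0.00889, adjusted p = 0.107) and rho = 0.79 (exact p = 0.0308), and r = 0.74 without knockout 5 and control 5. Among numbers 1 to 3, r of Cry2 and Nfil3 was 0.45 (exact p = 0.472). Arntl and Npas2 had r = 0.74 (exact p = 0.0469, adjusted p = 0.282) and rho = 0.79 (exact p = 0.0332), and r = 0.51 without knockouts 1 and 5. Arntl and Dbp, which peak at opposite times in adult organs, had r = -0.24 (exact p = 0.497) and rho = -0.33 (exact p = 0.359), and r = -0.57 without knockouts 1 and 5. The sign of r for Arntl and Dbp was not stable: r was 0.65 among numbers 1 to 3 (exact p = 0.306) and 0.23 with the mean of each number removed. The difference between these values was not tested.

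The genes whose deviations were most like those of Arntl over the 10 lungs, among 8713 named genes above the median level, were Srr, Hexim1, Elovl1, Tm4sf1 and Krt80, with Pearson's r from 0.90 to 0.93. The most opposite were Mcm5, Pkm, Mcm2, G2e3 and Mcm4, with r from -0.97 to -0.95. Mcm2, Mcm4 and Mcm5 encode subunits of the helicase that unwinds DNA for replication, and Pkm encodes pyruvate kinase. Mcm5 stood at 8.94, 9.23, 8.87, 8.33 and 8.68 in control lungs 1 to 5, and at 9.33, 8.89, 8.87, 8.57 and 9.31 in knockout lungs 1 to 5. Its lowest value was in control 4, the lung with the highest Arntl, and its highest values were in knockouts 1 and 5, the lungs with the lowest Arntl. The group means were removed beforehand, so this relation is among lungs within the groups. Mcm5 was not called by limma between genotypes (log2 change 0.18, adjusted p = 0.737). For Dbp the most alike were Rab18, Ncf1, Snrk, Lmna and Hdac1 (r from 0.88 to 0.93) and the most opposite Btbd6, Madd, Gpatch8, Caskin2 and Ypel2 (r from -0.95 to -0.86). These genes were picked as extremes from all those searched, so the values carry no p.

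The lungs carried the markers of their tissue, with the surfactant protein gene Sftpc between 13.39 and 13.49 in all lungs and the lineage factor Nkx2-1 between 10.92 and 11.13. Of 12 epithelial markers, 1 was called lower (Scgb3a2) and 0 higher by limma, and their mean log2 level ran from 11.12 to 11.22 in the controls and from 11.02 to 11.13 in the knockouts. The ranges met only at control 2 and knockout 4. This mean was otherwise lower in the knockouts, as were Per3, Nr1d2, Bhlhe41 and Tef. The median log2 change of the 12 markers was only -0.01, so the lower mean does not describe a typical marker of the list. The part of this mean in the results of the 4 clock genes was not tested. The mean of 5 endothelial markers ran from 11.02 to 11.12 and from 10.97 to 11.07, that of 6 fibroblast and smooth muscle markers from 10.85 to 10.97 and from 10.74 to 10.97, and that of 5 leukocyte markers from 8.38 to 8.59 and from 8.29 to 8.50, with 0 called in these 3 lists. Their median log2 changes were -0.03, -0.07 and -0.11. Heart muscle markers were present in every lung (Myh6 from 8.97 to 9.50), with list means from 9.30 to 9.73 in the controls and from 9.33 to 9.50 in the knockouts.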

How the data were processed

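RNA of 10 whole lungs was measured on Affymetrix mouse gene arrays. The authors deposited 1 table of log2 levels per probe set and lung. The tools oligo, RMA and limma are named in the submitters' processing notes, without versions, and no build is given there. The table held 24888 probe sets, from 3.526 to 13.611, with sample medians from 7.428 to 7.461. Of these, 18922 carried 1 symbol in the platform's annotation, 1343 carried several and 4623 had no symbol. Of those with 1 symbol, 18790 matched RefSeq (GRCm38.p6) by gene ID. Where a gene had more than 1, that of the highest mean level was kept. No other filter was applied.

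Knockout and control were compared with limma 3.58.1 in R 4.3.3 (lmFit, eBayes, two-sided), p-values being adjusted by Benjamini-Hochberg across the 17919 genes and called under 0.05. Single genes were also compared by an exact permutation test over 252 assignments, and correlations by exact permutation within both groups (14400 arrangements). Over all genes, log2 changes had a median SE of 0.0662, and the number of arrays limits the precision. In simulated data for this comparison (17919 genes), changes of 1 log2 unit were recovered at 100% and of 0.5 at 82%. Changes smaller than 0.5, such as those of all measured members, were not simulated. The simulated lungs varied independently, without the variation shared by replicate number, so these rates do not describe the genes not called here.

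Samples with the same replicate number deviated together: the correlations of their deviations were 0.319, 0.154, 0.183, 0.485 and 0.36. Between different numbers the median was -0.0829 and the highest 0.33. The labels give no pairing. The comparisons are unpaired, and the fit with the replicate number as a block is given beside a result where it changes the call. The labels call the samples biological replicates.

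The members and gene lists were chosen with earlier results of these data known. The text names all members, Nr1d1, Nr1d2 and Hdac3, each called gene of the lists or else the 2 with the smallest p, and the 5 genes most like and most opposite to Arntl and Dbp. Clock factors and output genes outside this rule were named with their values in view. Of the 4 erythroid markers listed, 0 had a probe set of their own. Lists for thymus and oesophagus (2 of 4 measured, means from 6.25 to 6.48) and neurons (2 of 3 measured, from 5.87 to 6.28) had 0 called genes by limma.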

Additional observations from a re-analysis of the deposited data

Results flagged for a closer look

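In 22 genes, with 44 groups of 5 lungs examined, 4 groups had 1 lung far from the others by Dixon's criterion, which chance meets in about 1 in 20 groups. Rora in control 5 (8.60) lay below the other controls (8.84 to 8.94). Tef in knockout 5 (8.61) lay above the other knockouts (8.43 to 8.46). Cdkn1a in knockout 5 (9.96) lay below the other knockouts (10.70 to 10.95). Tbl1x in control 4 (10.53) lay above the other controls (10.48 to 10.49).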

How the results depend on the processing

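Per3, Nr1d2 and Tef kept their direction and their call under every other processing and every omission of 1 lung in which they were tested, with adjusted p of at most 0.0231, 0.0419 and 0.0471, and Bhlhe41 under all but the floor. With the replicate block the members called lower were 2, as with genes above the median level, a trended robust prior, array weights, and numbers 1 to 3 against 4 and 5 as a block, an alternative chosen after seeing the data. In each case Arntl was added. Leaving out each lung gave 1 to 2 members lower and 0 to 1 higher. The 1 higher was Cry2, without knockout 5. Restriction to some numbers was also chosen after seeing the data: among numbers 1 to 3, 1 member was higher (Cry2) and 0 were lower. With only numbers 4 and 5, 0 members and 0 other clock factors were called lower, and over all genes 1 was lower and 1 higher. With genes above the median level, 1 other factor was called lower (Tef), since Nr1d2 and Bhlhe41 lie below that level. Over all genes, 437 were lower with the replicate block and 455 with the block of 1 to 3 against 4 and 5 (409 and 455 higher), against 283 (276 higher). Leaving out each lung gave 202 to 317 lower and 189 to 382 higher. Only numbers 1 to 3 gave 188 lower and 260 higher. The replicate block changed no other call of a named clock gene than those given beside the results. Changes near 0 turned sign without a call: Per1 was 0.02 with array weights, 0.04 among numbers 1 to 3, and -0.11 to 0.06 with single lungs left out, Cry1 -0.05 to 0.00 with single lungs left out, and Nfil3 -0.03 among numbers 4 and 5. The correlation of Cry1 and Cry2 was 0.33 with the mean of each number removed, against 0.86. The cause of these differences was not tested. No scaling moved the median of all genes by more than 0.01.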
